A study of Mus musculus with 2 samples.

Results

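The small heat shock protein genes Hspb1, Hspb2, Hspb3, Hspb6, Hspb7, Hspb8 and Cryab were measured in mouse heart together with Bag3 and with Des, which encodes the filament protein desmin. These 9 genes were taken by symbol from the transcript names of the second quantification and joined by gene identifier to the first, and all 9 were found among 55536 annotated genes, 22015 of them nuclear and protein-coding. The data came from total RNA of heart tissue of male B6CASTF1/J mice, first-generation hybrids carrying one B6 and one CAST genome, at 36 days of age. The 2 biological replicates, called hearts below, form 1 group with no treatment and no control group, and the labels number them as different males and separate biosamples but give both the same donor entry, so the SD between them is a spread between animals only if the numbering is of animals. The files give 1 value per gene, with the parental alleles not separated and all cells of the tissue pooled. Libraries were made from 300 ng of RNA and held 41846508 and 42481559 expected counts. Depth therefore gave each gene's counts a narrow sampling error, except for Hspb3.

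Small heat shock proteins share a conserved alpha-crystallin domain, assemble into oligomers and hold unfolding proteins without using ATP, so that other chaperones can refold them or hand them on for breakdown. In heart muscle some of them bind desmin, actin or titin at or near the Z-disc, the plane that anchors the thin filaments of the sarcomere. BAG3 joins HSPB8 to the chaperone HSP70 and directs damaged Z-disc proteins such as filamin C to autophagy, and human mutations in CRYAB, BAG3 and DES cause myopathies in which desmin or other proteins aggregate.

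Cryab and Hspb2 lie side by side on chromosome 9 and are read in opposite directions, and intronic sequence separates the retained-intron transcripts of Cryab and Des from the coding ones. The stretches are shown because the quantifications split the reads of both genes differently between these transcripts. Cryab-204 starts inside an intron of Cryab-205, the coding transcript with the larger share in the first quantification, and its first 117 bases (chromosome 9, 50754395 to 50754511, plus strand, GRCm38) are in no other Cryab transcript. Des-202 starts 128 bases before an exon of Des-201, inside the preceding intron (chromosome 1, 75362030 to 75362157, plus strand). Des-203, another retained-intron transcript (75361526 to 75362403), spans this stretch, so it does not mark Des-202 alone. Of the 222 bases of Des-202 outside Des-201, 94 are in no other Des transcript. Both were read from the GENCODE M21 transcripts, with the intron in lower case and the first 12 bases of the shared exon in capitals.
Cryab-204: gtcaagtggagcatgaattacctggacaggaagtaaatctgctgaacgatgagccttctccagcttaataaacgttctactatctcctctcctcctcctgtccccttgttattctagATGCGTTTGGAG
Des-202: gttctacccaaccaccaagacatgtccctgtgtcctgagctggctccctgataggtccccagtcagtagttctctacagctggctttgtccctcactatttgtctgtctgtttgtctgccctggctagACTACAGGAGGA

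Promoter sequences from RefSeq (GRCm38.p6) were on hand for 7 of the 9 genes, in 8 windows because Hspb6 has 2 starts. The entries for Cryab and Hspb2 were not found in the table used. Each window held up to 250 bases before the RefSeq start, cut where the GENCODE start lies further upstream. The windows were searched on both strands for the heat shock element cores GAANNTTC and TTCNNGAA, which heat shock factors bind, and for the TATA box TATAAA. The CArG box and the MEF2 site of muscle genes and the short E-box CANNTG were searched too. GAANNTTC was present in 3 of 8 windows, those of Hspb1, Hspb3 and the coding start of Hspb6, against 6.69% of 32817 RefSeq promoters cut to 250 bases. TTCNNGAA was in 0 of 8 windows (7.16% of all promoters) and the CArG box also in 0 (1.47%). The letters of the TATA box and of the MEF2 site, which overlap, were in the Hspb3 window only (12.4% and 2.92% of all promoters, at any position). They begin 11 and 12 bases before the start, and whether they act as such sites was not tested. The E-box was in 5 of 8 windows, those of Des, Hspb7, Hspb8, Hspb1 and Hspb3 (66.2% of all promoters). The window of Bag3 held none of these letters. A match is a description of sequence and not a site of binding. Matches were read in the reference genome, and the parental genomes of these hybrids were not examined. The windows of Hspb1 (chr5:135887669-135887918, plus strand), the coding start of Hspb6 (chr7:30553051-30553267, plus strand), Hspb3 (chr13:113663677-113663926, minus strand) and Bag3 (chr7:128523333-128523582, plus strand) are printed. They show the windows with a match other than the E-box beside 1 without any match. Capitals mark the matches, E-boxes excepted.
Hspb1: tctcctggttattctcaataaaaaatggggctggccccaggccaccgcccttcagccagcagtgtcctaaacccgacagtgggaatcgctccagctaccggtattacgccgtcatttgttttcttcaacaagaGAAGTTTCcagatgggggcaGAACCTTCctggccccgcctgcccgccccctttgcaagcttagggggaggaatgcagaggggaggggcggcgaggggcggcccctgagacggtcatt
Hspb6: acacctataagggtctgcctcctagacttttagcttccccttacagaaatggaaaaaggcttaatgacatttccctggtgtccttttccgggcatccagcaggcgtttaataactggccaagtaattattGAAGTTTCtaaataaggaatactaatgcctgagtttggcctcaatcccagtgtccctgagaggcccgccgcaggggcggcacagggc
Hspb3: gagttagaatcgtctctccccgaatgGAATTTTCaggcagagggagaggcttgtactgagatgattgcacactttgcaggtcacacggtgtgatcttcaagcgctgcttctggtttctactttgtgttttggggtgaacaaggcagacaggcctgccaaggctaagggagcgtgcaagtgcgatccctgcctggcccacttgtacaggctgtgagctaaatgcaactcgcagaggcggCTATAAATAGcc
Bag3: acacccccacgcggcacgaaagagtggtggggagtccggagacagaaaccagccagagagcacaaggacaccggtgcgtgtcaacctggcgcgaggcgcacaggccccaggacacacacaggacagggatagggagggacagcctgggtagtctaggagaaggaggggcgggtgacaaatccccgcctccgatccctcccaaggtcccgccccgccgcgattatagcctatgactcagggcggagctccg

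Cryab was the most abundant member, and the levels of the 9 genes spanned more than 2 orders of magnitude. Cryab encodes alphaB-crystallin, a chaperone of desmin and titin (chromosome 9, 50751325 to 50756636). It stood at 949.7 TPM in heart 1 and 1061 TPM in heart 2 in the first quantification (1005 ± 78.5, SD, n = 2), where TPM is the length-normalised abundance deposited for each gene. That put it at place 36 of the nuclear protein-coding genes by mean TPM. Heart 2 was the higher of the pair. In bulk tissue, fewer cells of a type and less RNA per cell cannot be told apart.

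Des, the intermediate filament of muscle that links Z-discs to each other and to the membrane (chromosome 1, 75360329 to 75368579), came next at 444 and 524 TPM in hearts 1 and 2 (484 ± 57.1, SD, n = 2), at place 102. Hspb7, a small heat shock protein of heart and skeletal muscle that binds the thin filament and filamin C (chromosome 4, 141420779 to 141425311), had 382 and 433 TPM (408 ± 35.6, SD, n = 2) and held place 126. Both were higher in heart 2, and the lower Des value, 444, stayed above the higher Hspb7 value, 433.

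The middle of the range held Hspb6, Hspb1 and Hspb8. Hspb6, also called HSP20 and a target of protein kinase A (chromosome 7, 30552178 to 30555443), stood at 245 and 279 TPM in hearts 1 and 2. Hspb1, also called HSP25 or HSP27, a heat-inducible chaperone that acts on actin filaments (chromosome 5, 135887919 to 135889563), stood at 159 and 169 TPM. Hspb8, the partner of BAG3 (chromosome 5, 116408491 to 116422864), had 140 and 157 TPM. Hspb1 and Hspb8 were the closest pair in the first quantification, with 159 as the lowest Hspb1 value and 157 as the highest Hspb8 value.

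Bag3 and the genes of the HSPB2 and HSPB3 complex of muscle were lower. Bag3 (chromosome 7, 128523616 to 128546981) stood at 92.1 and 101 TPM, so Hspb8 exceeded it 1.52 times in heart 1 and 1.56 times in heart 2. Hspb2 (chromosome 9, 50751078 to 50752354) had 52.1 and 50.5 TPM. Hspb3, a gene with a single exon (chromosome 13, 113662896 to 113663676), had 7.01 and 5.08 TPM, from 161 and 117 expected counts. It stood at place 6794 of the nuclear protein-coding genes, while Hspb2, the member next above it, stood at place 1033 and exceeded it 8.48 times by mean TPM.

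**Figure D1:**
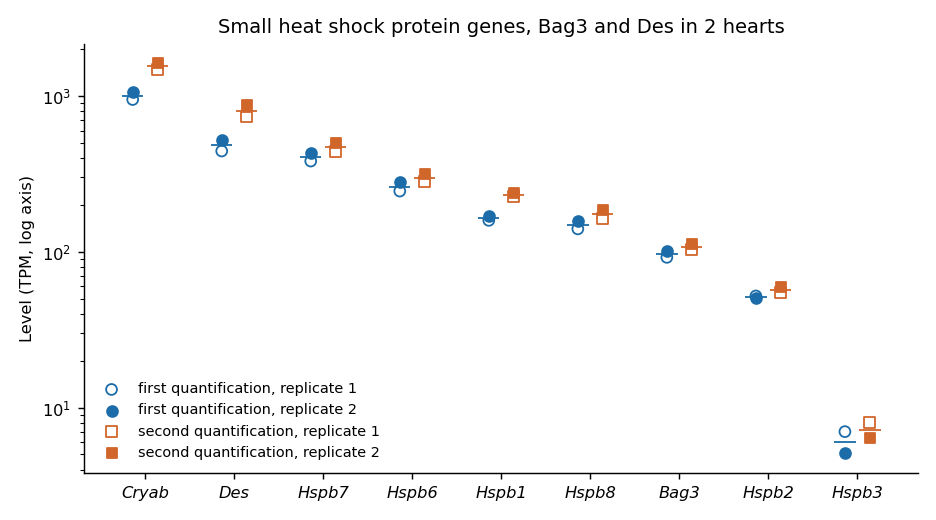
Level of each member in TPM (log axis) in both hearts, by the first quantification (circles) and the second (squares); open symbols are replicate 1, filled symbols replicate 2, and bars mark the means. Cryab is highest and Hspb3 lowest in every library, and the order of the 9 genes is the same in the quantifications.

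The order Cryab, Des, Hspb7, Hspb6, Hspb1, Hspb8, Bag3, Hspb2, Hspb3 held in each heart and in both quantifications. For all 8 pairs of neighbours in that order, the values of the 2 hearts did not overlap within a quantification. Together the 9 genes took 0.657% of nuclear protein-coding TPM in heart 1 and 0.732% in heart 2. Cryab alone held 38.4% and 38.2% of the members' summed TPM, Des 17.9% and 18.9%, and Hspb3 0.284% and 0.183%. The genes nearest to Cryab in mean TPM were Ldhb above it at 1013 and Cox6c below it at 987. Des lay between Etfb at 487 and Hsp90ab1 at 479, and Hspb7 between Myom1 at 409.5 and Nme2 at 402, with mean TPM over 2 samples as the measure of likeness.

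The tissue label was checked against the cardiomyocyte markers, all 8 of which stood at 351 TPM or more in both hearts, with Myh6 at 7641 and 8514. Of 8 skeletal muscle fibre markers, 1 reached 1 TPM in both hearts, with summed levels of 2.25 and 3.04 TPM. The lens markers summed to 0.920 and 1.39 TPM, with Cryaa, the lens partner of alphaB-crystallin, at 0 counts in both hearts, which allows up to 0.0717 and 0.0706 CPM. Smooth muscle and pericyte markers, whose cells also make desmin, summed to 272 and 273 TPM. Blood and fat cell markers differed between the hearts: the erythroid sum was 13381 and 6207 TPM, and the adipocyte sum 95.6 and 22.4 TPM.

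Transcript shares set the level of Cryab that could be counted as coding. In the first quantification Cryab-205 held 46.9% of the gene's TPM in both hearts, while Cryab-204, annotated as a retained intron and 585 bases long, held 50.5% and 50.7%. In expected counts Cryab-205 had 11038 and 12394, and Cryab-204 had 7855 and 8836. The deposited posterior SD of these counts was 143 and 157 for Cryab-205 and 125 and 139 for Cryab-204, so the first quantification itself gave the split a small error. The second quantification placed the reads otherwise. It gave Cryab-204 31.9% and 28.8%, Cryab-203 26.6% and 30.7%, and Cryab-205 12.5% and 13.97%. Cryab-203 had 34.3 and 0 expected counts in the first quantification and 7051 and 8874 estimated counts in the second. Cryab-203 has 27 bases outside Cryab-205, Cryab-205 has 17 outside Cryab-203, and neither has a base that no other Cryab transcript shares.

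**Figure D2:**
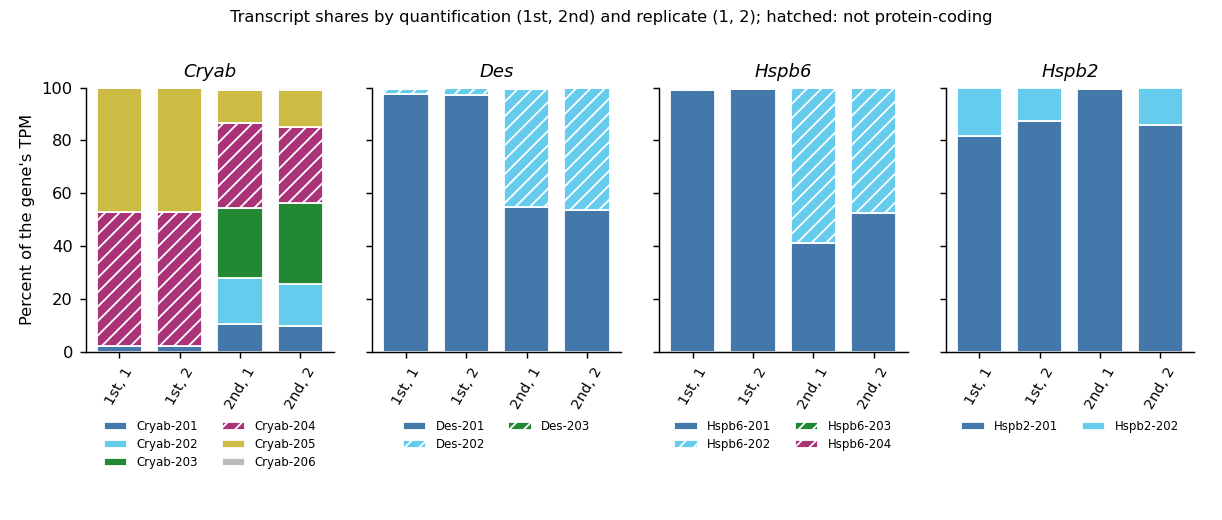
Percent of the gene's TPM held by each annotated transcript of Cryab, Des, Hspb6 and Hspb2, for the first and second quantification and replicates 1 and 2; hatched bars are transcripts not annotated as protein-coding. Des-202 holds 2.19% and 2.57% in the first quantification and 44.7% and 45.9% in the second, and in the second the hearts differ for Hspb2 (0.597% and 14.3% for its shorter transcript) and for Hspb6 (41.2% and 52.7% for its coding transcript).

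Des and Hspb6 had the same kind of split. Des-201, the coding transcript, held 97.4% and 97.2% of the gene's TPM in the first quantification but 54.9% and 53.8% in the second. Des-202, the retained-intron transcript printed above, had 241 and 335 expected counts in the first and 5744 and 7046 estimated counts in the second. The reads of the gene as a whole were close, at 42889 and 50802 in the first and 43224 and 50948 in the second, yet its TPM was 1.65 and 1.67 times as high in the second. A processed transcript of Hspb6, not annotated as coding and with no base of its own, had 97.7 and 43.8 expected counts in the first and 5524 and 4974 estimated counts in the second. The coding transcript of Hspb6 held 99.0% and 99.6% in the first quantification and 41.2% and 52.7% in the second.

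Of the 22 transcripts of the members, 15 are annotated as protein-coding. Hspb7, Bag3 and Hspb3 have 1 transcript each, and Hspb1 and Hspb8 kept at least 99.6% of their TPM in 1 coding transcript in both quantifications. Each heart named the same main transcript for all 9 genes in the first quantification, and the second gave that transcript in both hearts for 7, the exceptions being Cryab and Hspb6, for which the second named different main transcripts in the 2 hearts. The shorter of the 2 coding transcripts of Hspb2, at 552 bases, held 18.4% and 12.6% in the first quantification and 0.597% and 14.3% in the second, on 2.57 and 66.1 estimated counts.

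Gene totals in the second quantification were higher than in the first for all 9 members by mean TPM. The summed TPM of all nuclear protein-coding genes was higher too, at 490570 and 491622 against 376492 and 379439 in hearts 1 and 2. A rise is therefore not particular to the members. Cryab at 1484 and 1618 TPM and Des at 734 and 878 TPM were the 2 of 9 members that differed 1.5-fold or more, against a background of 14.4% of 8592 genes at 5 TPM or more in either quantification. None of the 9 was 1.5-fold lower, against 4.29%. Hspb6, Hspb2 and Hspb3 had fewer reads in the second, 9689 and 10953 against 10437 and 11929 for Hspb6, 842 and 844 against 1110 and 1102 for Hspb2, and 126 and 99.0 against 161 and 117 for Hspb3.

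A count over protein-coding transcripts alone was a setting chosen after the data were seen. In the first quantification all 9 genes kept their place, with Cryab closer to Des than by gene totals. Cryab stood at 470 and 523 TPM, Des at 432 and 510, and Hspb7 at 382 and 433. The order held within each heart, although the ranges over the hearts overlapped for Cryab and Des and for Des and Hspb7. In the second quantification coding Cryab stood at 1010 and 1151 TPM, 2.15 and 2.20 times the first, and Des at 403 and 472 TPM lay between Hspb7 at 441 and 496 and Hspb1 by mean level. Hspb6 at 116 and 167 TPM went below Hspb1 at 225 and 239 TPM and overlapped Hspb8 at 164 and 184 TPM. Only 4 of 9 genes then kept their place, namely Cryab, Bag3, Hspb2 and Hspb3.

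Cryab and Hspb2 differed in level although their starts are close. The first base of Cryab-205 lies 727 bases from that of the longer Hspb2 transcript, and the gene spans share 1030 bases because Cryab-206 and Cryab-202 start upstream, within the span of Hspb2. Cryab exceeded Hspb2 18.2 and 21.02 times in TPM in the first quantification and 27.0 and 27.3 times in the second. Cryab-206 and Cryab-202, the transcripts with starts in Hspb2, had 44.6 and 24.7 expected counts in heart 1 and 57.9 and 0 in heart 2. The second quantification gave Cryab-202 2962 and 2935 counts. Most of the shared span is not exon in both genes. Exons of Cryab and Hspb2 overlap only at the first exon of Cryab-206, while that of Cryab-202 lies in an intron of Hspb2. The label of the spike-in mix names stranded libraries, but no source used here says whether the counting used strand. Reads of the first exon of Cryab-206 could therefore be assigned to either gene.

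**Figure D3:**
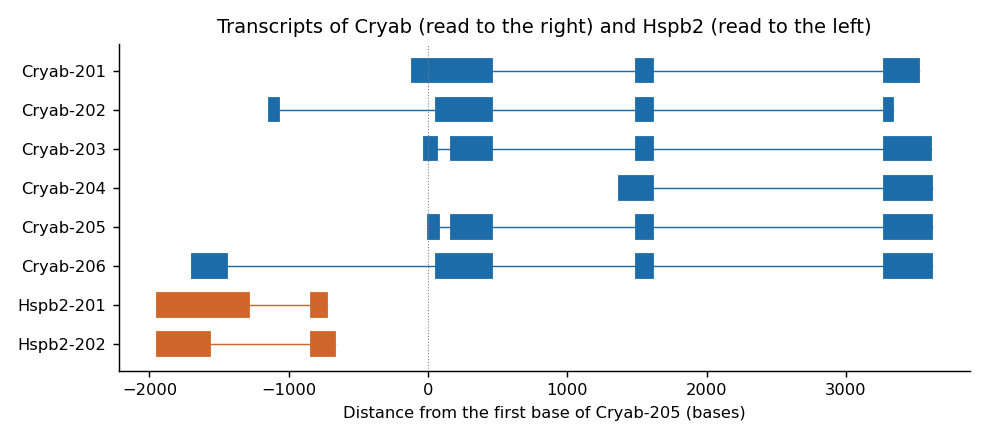
Exons (boxes) and introns (lines) of the annotated transcripts of Cryab and Hspb2, by distance in bases from the first base of Cryab-205. The longer Hspb2 transcript starts 727 bases to the left, Cryab-206 and Cryab-202 start within the span of Hspb2, and Cryab-204 starts inside an intron.

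Other overlapping genes had at most 150 counts. Lin37, opposite to the end of Hspb6 and sharing 3 bases with it, had 147 and 150 counts. Gm15179, antisense to the end of Des, had 2 and 5 counts, Proser3 at the upstream end of Hspb6 had 56 and 68, and 2610306O10Rik inside an intron of Bag3 had 11 and 20.

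The hearts were compared by the log2 ratio of replicate 2 over replicate 1, from counts scaled by TMM, a factor that centres most genes on 0. Of the 9 members, 0 differed 2-fold, against a background of 1.28% of 12541 genes with a mean count of 50 or more (1.00% higher in heart 1 and 0.279% higher in heart 2). By 1.5-fold the count was also 0, against 4.28% (2.58% higher in heart 1 and 1.71% higher in heart 2). The fold is a rule of size and not a test: with 2 hearts, the smallest p that an exact permutation of signs allows is 0.5. The median log2 ratio of the members was 0.12, against 0.0010 for all genes with a mean count of 10 or more and 0.081 for the 8 cardiomyocyte markers, which all lay above 0.

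Members with high counts lay slightly toward heart 2. Des, with 42889 and 50802 counts, was furthest at 0.20 (95% counting interval 0.18 to 0.22). Hspb6 stood at 0.15 (0.11 to 0.19), Hspb7 at 0.14 (0.12 to 0.16), Cryab at 0.12 (0.092 to 0.15), Hspb8 at 0.12 (0.076 to 0.16) and Bag3 at 0.087 (0.042 to 0.13). Hspb1 at 0.050 (-0.010 to 0.11) did not differ beyond counting error. Their distance from the cardiomyocyte median was 0.12 for Des, 0.0060 for Bag3 and -0.030 for Hspb1.

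Hspb2 and Hspb3 lay on the other side. Hspb2, with 1110 and 1102 counts, stood at -0.055 (-0.18 to 0.066), which turned to 0.018 under spike-in scaling. Hspb3, with 161 and 117 counts, stood at -0.50 (-0.86 to -0.15), or 1.42-fold higher in heart 1. In the second quantification, on 126 and 99.0 reads, it stood at -0.39 (-0.78 to 0.0026), which no longer differed beyond counting error. Of all genes with a mean count of 50 or more, 94.0% lay closer to 0 than Hspb3, and 72.3% lay closer than Des. Ratios scatter more at low counts, and Hspb3 had a mean count of 139. Its place is therefore not comparable with that of genes with more reads.

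The counting interval excluded 0 for 7 of 9 members, against 32.3% of the 12541 genes. It was so for 6 toward heart 2 (background 15.5%) and for 1, Hspb3, toward heart 1 (background 16.8%). Intervals narrow as counts rise, and the members other than Hspb3 had mean counts from 1106 for Hspb2 to 46846 for Des, so their share is not comparable with that of genes with fewer reads. Blood markers (4 of 4 genes 2-fold lower in heart 2) and fat markers (4 of the 5 measured) differed by more, at list medians of -1.19 and -3.26. Of the 12541 genes, 1.00% were 2-fold lower in heart 2. The part of blood and fat cells in the ratios of the members was not tested. The cardiomyocyte markers ran from 0.036 to 0.13, a range that held Cryab, Hspb1, Hspb8 and Bag3 and left Des, Hspb6 and Hspb7 above it.

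**Figure D4:**
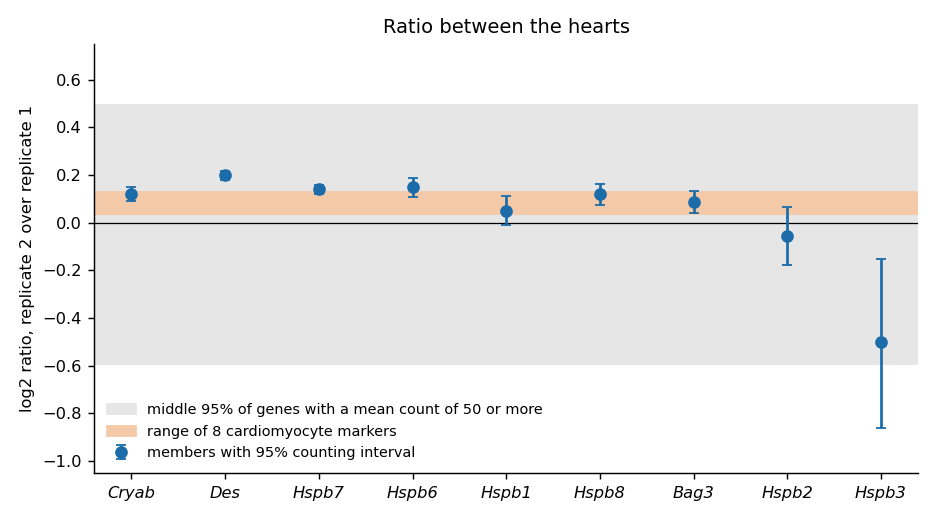
Log2 ratio of replicate 2 over replicate 1 for each member, with 95% counting intervals; the grey band holds the middle 95% of genes with a mean count of 50 or more and the orange band spans the 8 cardiomyocyte markers. Des at 0.20 is furthest toward heart 2 and Hspb3 at -0.50 furthest toward heart 1, both inside the grey band.

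Other genes of the same systems were read from lists. Among partners of chaperone-assisted selective autophagy, the route that BAG3 serves, all 14 genes reached 1 TPM in both hearts. Hspa8, the constitutive HSP70 family member that BAG3 binds, stood at 532 and 513 TPM, Sqstm1, the autophagy receptor p62, at 126 and 140 TPM, Flnc, the filamin client, at 73.3 and 79.6 TPM, and the ubiquitin ligase Stub1 at 38.7 and 40.9 TPM. None of the 14 was 2-fold higher in heart 2 and 1, Hspa1b, was 2-fold higher in heart 1. The list's median log2 ratio was 0.041.

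Within the BAG family, Bag3 was near the most abundant of the other members. Bag1, which also regulates HSP70, stood at 94.7 and 96.1 TPM and Bag6, which handles misplaced membrane proteins, at 86.2 and 89.7 TPM, beside 92.1 and 101 TPM for Bag3. Bag2, Bag5 and Bag4 were lower, at 12.7 and 12.1, 8.70 and 7.18, and 1.80 and 2.53 TPM in hearts 1 and 2. Their 5 log2 ratios had a median of -0.067, which turned to 0.0065 under spike-in scaling.

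Outside the members, small heat shock genes were little detected. Hspb11, an intraflagellar transport gene despite its name, stood at 5.22 and 4.91 TPM. Hspb9, a testis gene, had 0 and 3 counts, and Odf1, of the sperm tail, 1 in each heart. Among the heat shock factors, Hsf1, the main activator of the heat shock response, stood at 13.5 TPM in both hearts and Hsf2 at 4.47 and 5.06 TPM, while Hsf4 stayed below 1 TPM at 0.780 and 0.600.

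Heat-inducible genes outside the members divided in size of ratio. The inducible chaperone Hspa1b had 365 and 93.6 counts, a log2 ratio of -1.99, and Hspa1a 285 and 162 counts at -0.86, with the split between these near-identical copies uncertain. Dnajb1, an HSP40 that works with them, had 694 and 386 counts at -0.89. These 3 of 13 were 1.5-fold higher in heart 1, against 2.58% of 12541 genes. The other 10 differed by less, from Serpinh1 at -0.33 (-0.37 to -0.28) to Hspe1 at 0.089 (-0.018 to 0.20). Hsph1 stood at -0.0014, Hsp90aa1 at -0.012 and Hspd1 at 0.045. Of the 13, 10 lay toward heart 1, against 7836 of 15749 genes with a mean count of 10 or more. Under spike-in scaling 7 of 13 lay toward heart 2, against 10327 of 15749. The inducible members Hspb1, Bag3 and Cryab stood at 0.050, 0.087 and 0.12. The list's median of -0.064 turned to 0.010 under spike-in scaling, while Hspa1b, Hspa1a and Dnajb1 were lower in heart 2 in the second quantification as well, at -1.93, -0.90 and -0.88.

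**Figure D5:**
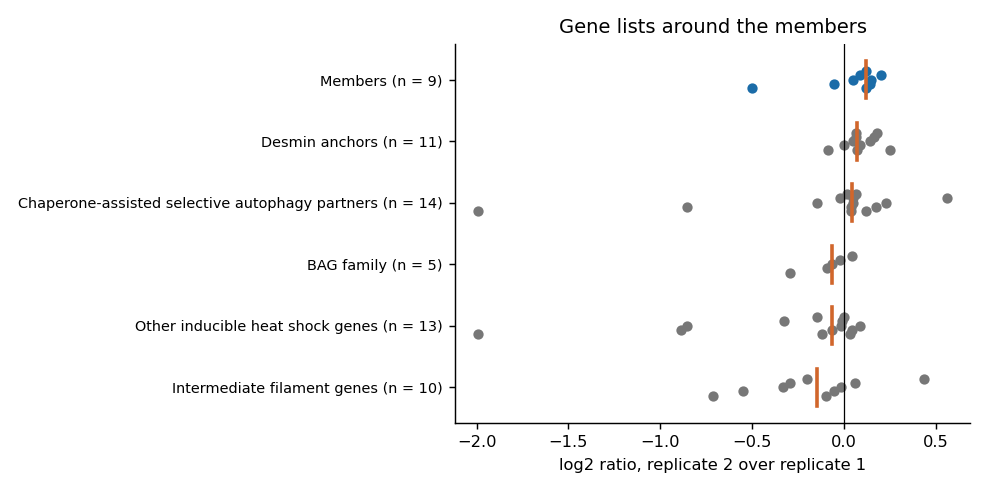
Log2 ratio of replicate 2 over replicate 1 for the members and for 5 gene lists, 1 point per gene with a mean count of 10 or more; orange bars mark medians, which run from 0.12 for the members to -0.15 for intermediate filament genes. The leftmost point, -1.99, is Hspa1b, which belongs to the autophagy and the inducible lists.

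Des was the most abundant of the intermediate filament genes listed here. Vim, the filament of mesenchymal cells, stood at 161 and 130 TPM, Lmna, of the nuclear lamina, at 50.5 and 44.7 TPM, and Nes, nestin, at 7.61 and 6.89 TPM. Synm, synemin, which joins desmin filaments in muscle, had 2.24 and 3.28 TPM. Of the 10 with a mean count of 10 or more, 8 lay toward heart 1 (6 under spike-in scaling), Vim at -0.33, and Synm lay toward heart 2 at 0.44. Among all genes with such a count, 7836 of 15749 lay toward heart 1 under TMM scaling. The 5 fibroblast markers, of cells that also make vimentin, summed to 423 and 368 TPM with a median log2 ratio of -0.069 (0.0050 under spike-in scaling) and Col3a1 at -0.46, and their part in the Vim value was not tested.

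The 11 genes listed as desmin anchors, most of them genes of Z-discs, cell junctions and membranes, all reached 1 TPM in both hearts. Actn2, alpha-actinin of the Z-disc, stood at 612 and 644 TPM, Ldb3 at 346 and 366 TPM, the desmosomal plaque protein Dsp at 170 and 195 TPM, and the linker Plec at 121 and 127 TPM. Of 11, 10 lay toward heart 2, against 7913 of all 15749 genes with a mean count of 10 or more. The list's median was 0.069, from 0.25 for Pkp2 to -0.089 for Nebl, and none differed 1.5-fold. Dst at 0.0023 (-0.015 to 0.020) and Mtmr14 at 0.16 (-0.029 to 0.36) did not differ beyond counting error. Mtmr14 is counted with the list but is not a structural anchor. The 8 cardiomyocyte markers, Actn2 among them, also all lay above 0, with a median of 0.081.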

How the data were processed

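Total RNA of the heart was measured in 1 group of 2 replicates. Per the notes deposited with the files, the first quantification was made by the authors from transcriptome alignments (mm10, GENCODE M21), with expected counts, TPM, FPKM and the percent of a gene's TPM per transcript as deposited units. Estimated counts and TPM of a second, made from the reads and an index, were deposited too and summed per gene. The sources used here name neither tools nor versions. The first takes effective length as length minus 99 bases, the second corresponds to fragments of 326 and 328 bases.

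Expected counts were rounded and scaled by TMM in edgeR 4.0.16 (R 4.3.3) over 15103 genes, without spike-ins, and log2 ratios used a prior count of 1. Intervals are exact Clopper-Pearson and cover counting error only, as do limits from a count of 0 (3 counts). No test was possible between 2 samples of 1 group, so no p is given for genes. DESeq2 1.42.0 size factors, library totals, spike-ins, other filters, prior counts and units were tried. All 9 members are named, with genes of fixed lists and the nearest genes in level; members and lists were chosen with earlier results of these data known. Windows and stretches were read with Python 3.11.15.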

Additional observations from a re-analysis of the deposited data

How the results depend on the processing

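The count of members 2-fold apart was 0 under library totals, DESeq2 size factors, spike-in totals, the second quantification and a 1.5-fold threshold; a lower minimum count could not change it, since all members passed the minimum of 50. The members' median log2 ratio of 0.12 ran from 0.11 to 0.16 under other settings and was 0.19 with spike-in scaling, which shifts every gene by 0.074. Their share of nuclear protein-coding TPM, 0.694% on average, was 0.556% when expected counts replaced TPM, 0.754% with TPM of the second quantification, and 0.657% to 0.732% in a lone library. All 9 genes kept their place in the second quantification, in either heart alone and over coding transcripts of the first quantification. FPKM is proportional to TPM within a library and could not change the order. Over coding transcripts of the second quantification, only 4 kept their place. The main transcript matched for 7 of 9 in the second quantification and for 8 of 9 by percent of expected counts, where Cryab-205 led Cryab. For single genes, 42 ratios stayed inside the counting interval and 12 moved beyond it. Mean levels moved by more than 1 SD for 8 of 9 genes in the second quantification and for 1 of 9, Cryab, over coding transcripts of the first. The replicates form 1 group. No paired analysis was possible because there is no second group. Depth limits Hspb3, at 161 and 117 counts. For the values that differed between quantifications or scalings, the cause was not tested.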
